A study of Homo sapiens with 6 samples.

Results

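Voltage-gated calcium, sodium and potassium channel genes were taken from the deposited count table of OVCAR3 cells by their symbols. The set holds the CACNA, CACNB and CACNG genes, the SCN genes ending in A or B, and the KCN genes whose symbol carries a family letter and a number. It covers 136 of the 19973 genes in the table, of which 26 were calcium channel genes, 14 were sodium channel genes and 96 were potassium channel genes. OVCAR3 is an established human ovarian cancer cell line, and RNA-seq was performed on 3 libraries of cells carrying the control hairpin shNC, labelled WT, and on 3 libraries of cells carrying shNUF2, labelled as NUF2 knockdown. The series' design text says that puromycin was applied to both to obtain stable lines, so that the shNC cells had also been transfected and selected, and each group carried a single hairpin. Nothing in the labels says that the libraries of a group came from separate cultures, so that p-values measure the spread between these libraries, which may be technical.

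Voltage-gated channels are membrane proteins whose pore opens when the membrane potential changes. In calcium and sodium channels a single large alpha subunit forms the pore, and in potassium channels separate pore subunits assemble around it, while beta, gamma, alpha2delta, KCNE and KCNAB proteins are auxiliary subunits that alter trafficking and gating. These channels are best known from neurons, heart and skeletal muscle, but epithelial cells and carcinoma cells also carry several of them, with potassium channels helping to set the resting potential and calcium channels letting calcium into the cell.

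The symbols gather more than channels with a voltage sensor. The set contained 16 inward rectifier (Kir, KCNJ) genes and 15 K2P leak channel (KCNK) genes, all of which carried the inward rectifier or the leak channel term in the annotation deposited with the counts. The same annotation also gave a voltage-gated channel term to all 16 Kir genes and to 11 of the 15 K2P genes, so it does not separate them. As known from textbooks, the 31 Kir and K2P genes encode pores without a voltage sensor. The calcium channel alpha1, sodium channel alpha and Kv families together gave 60 genes, which held 18.2% of the summed FPKM of the set over the 6 libraries, whereas Kir and K2P genes held 43.5%. FPKM is the read count divided by gene length and library size, and is used here for every comparison of levels between genes. The set is therefore called channel genes below, with its voltage-gated members named as such.

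The total counts were between 13057534 and 16995452 reads per library. Levels of a gene between groups are given as reads or as CPM, the read count relative to the TMM-scaled library size. Channel genes summed to 801 to 847 CPM in shNC and 928 to 935 CPM in shNUF2. NUF2, the targeted gene, had 903, 1096 and 1092 reads in shNC and 281, 290 and 384 reads in shNUF2, and was significantly reduced (log2 fold change -1.51, SE 0.08, adjusted p = 2.17e-15). This and all further p-values come from edgeR's quasi-likelihood test, adjusted after Benjamini-Hochberg over all genes tested unless called unadjusted. Of 8 markers of ovarian carcinoma epithelium, KRT7, MSLN, KRT8 and KRT18 were abundant, with mean FPKM of 169, 153, 49.5 and 35.3 in shNC, whereas EPCAM, PAX8 and MUC16 were at 1.41, 1.39 and 1.12 FPKM and WT1 had at most 7 reads in any library. The summed CPM of the 8 was 1520 to 1624 in shNC and 1663 to 1773 in shNUF2, with KRT8 higher (log2 fold change 1.04) and MSLN and MUC16 lower (both -0.75). Of 10 neuronal markers, 4 (STMN2, GAP43, NEFM and ELAVL4) had no read in any library, and the summed CPM of the 10 was 49.3 to 56.1 in shNC and 38.6 to 45.9 in shNUF2. Most of this sum was SNAP25, which fell (48.9 against 38 CPM), whereas SYT1 rose (1.48 against 2.61 CPM, adjusted p = 0.0224). SYT1 no longer passed without shNC replicate 1 (adjusted p = 0.0804), shNUF2 replicate 1 (0.0583) or shNUF2 replicate 3 (0.152). The summed CPM of 9 muscle markers was 1.94 to 2.95 in shNC and 3.34 to 5.45 in shNUF2, with MYH7 and MYOD1 at 0 in every library. The sums of 5 leukocyte markers (1.45 to 2.38 CPM against 4.01 to 6.46 CPM) and of 7 fibroblast markers (84 to 90.6 CPM against 69 to 76.3 CPM) also did not overlap between shNC and shNUF2, nor did those of 4 endothelial markers (1.75 to 3.38 CPM against 3.41 to 5 CPM). The fibroblast sum followed COL1A1 (81.7 against 62.4 CPM), while DCN rose (3.66 against 8.48 CPM) and COL3A1 had 1, 0 and 2 reads against 15, 15 and 5. The endothelial sum differed through CDH5 (0.122 against 1.46 CPM), while PECAM1, its most abundant gene, was at 2.53 against 2.5 CPM.

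The part of these marker differences in the channel results was not tested. In bulk RNA, fewer cells with a transcript and fewer transcripts per cell cannot be told apart.

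Most of the channel genes were scarcely expressed in OVCAR3 cells. Of the 136, 32 had no read in any of the 6 libraries, 40 had a highest count of 1 to 9 reads and 64 reached 10 reads in at least 1 library. Only 19 had a mean of 1 FPKM or more, and 3 had a mean of 10 FPKM or more. A library's limit for a count of 0, taken as 3 reads, was 0.174 to 0.231 CPM and covers counting error only. Sodium channel alpha subunits held 0.505% of the summed FPKM, the lowest share of the 14 role groups. The 17 Kv1 to Kv4 pore genes held 3.75%, and 8 of them had no read. KCNMA1, the large-conductance calcium-activated (BK) potassium channel, had 0 to 3 reads.

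Expression was concentrated in 3 genes. KCNK1, a K2P leak channel also called TWIK1, was at 41.8 ± 2.05 FPKM in shNC and 55.5 ± 0.537 FPKM in shNUF2 (SD, n = 3). KCNN4, the intermediate-conductance calcium-activated potassium channel of non-excitable cells, was at 33.5 ± 1.44 FPKM and 45.3 ± 0.781 FPKM (SD, n = 3). CACNA1H, the T-type calcium channel Cav3.2, was at 13.1 ± 1.46 FPKM and 9.36 ± 0.837 FPKM (SD, n = 3). The 3 genes held 59.8% of the summed FPKM of the set, and within each group their ranges did not overlap each other. Neither of the first 2 is gated by voltage, so that CACNA1H was the highest voltage-gated pore.

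After these, levels dropped to a group of genes with neighbouring values. In shNC, KCNK15 was at 6.7 ± 0.621 FPKM, KCNAB2, an auxiliary beta subunit of Kv1 channels, at 5.59 ± 0.265 FPKM and KCNJ18 at 4.84 ± 0.561 FPKM. KCNJ12 at 4.3 ± 0.0277 FPKM, KCND1 (Kv4.1) at 4.22 ± 0.106 FPKM, CACNB3 at 3.77 ± 0.365 FPKM and KCNQ1 (Kv7.1) at 3.74 ± 0.409 FPKM followed. Neighbours in this order from KCNAB2 downwards lay within about the sum of their SDs, and their order is not resolved, as the plot of the genes with at least 1 FPKM shows. Levels per length also depend on the deposited lengths, which were 17329 bp for KCNAB2 and 43151 bp for CACNA1A but 3527 bp for KCNK1.

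**Figure D1:**
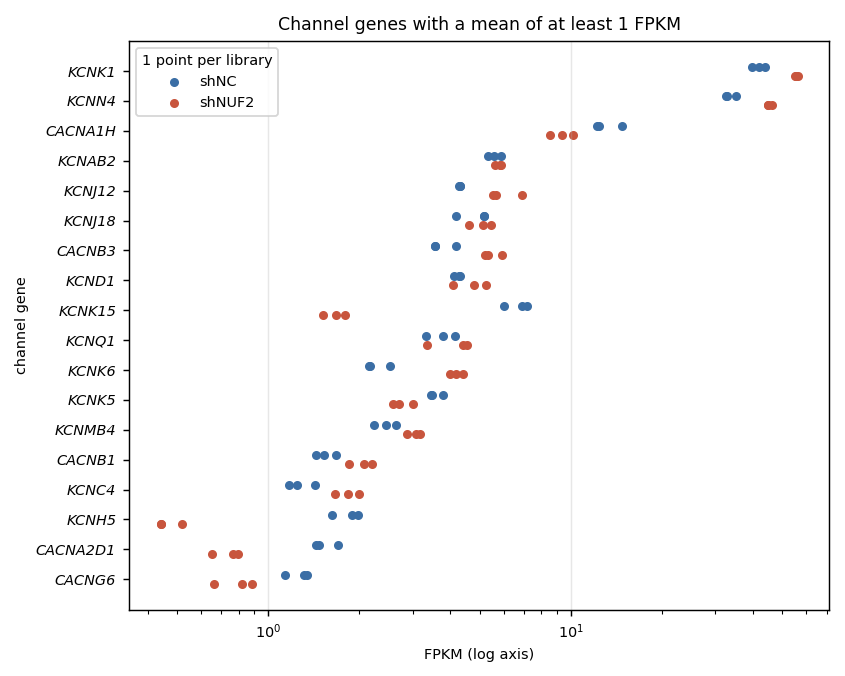
Level of 18 of the 19 channel genes with a mean of at least 1 FPKM, on a log axis of FPKM, with 1 point for each shNC (blue) and shNUF2 (red) library. KCNK1 and KCNN4 stand above 30 FPKM in every library, CACNA1H follows near 10 FPKM, and KCNK15, KCNH5 and CACNA2D1 have their 3 shNUF2 points well to the left of their 3 shNC points.

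To compare shNUF2 with shNC, the whole table was fitted with edgeR's quasi-likelihood test. Of the channel genes, 53 passed the filter on low counts and were tested, and 83 did not. A gene is called a DEG where its log2 fold change lay beyond 1 and its unadjusted p was under 0.05. Both thresholds follow the published methods, in which the fold change threshold was read here as being on the log2 scale. DEGs comprised 9 channel genes with higher and 6 with lower levels in shNUF2, or 17% and 11.3% of those tested, against a background of 9.41% and 4.16% of the 12874 genes tested. All 15 also had an adjusted p under 0.05. The higher count varied with the filter, the test and the libraries used. It was 2 with at least 1 CPM required in every library, 21 without a filter and 19 by DESeq2, which also tested more genes. By limma on log2(FPKM + 1) it was 0, where 19 channel genes were higher at an unadjusted p under 0.05. Without shNC replicate 1 or without shNC replicate 2 it was 14. The filter asked for about 0.682 CPM in 3 libraries. Of the 9 higher DEGs, 4 (SCN4B, KCNS1, CACNB4 and CACNA1A) reached this in shNUF2 libraries alone, and KCNK7 and KCNE5 reached it in all 3 libraries of shNUF2 but not of shNC. CACNB2, among the lower DEGs, reached it in all 3 libraries of shNC but not of shNUF2. A gene that entered through the group where it was high had to differ, so that its test is no independent support for the difference. With no threshold on the fold change, 23 channel genes rose and 9 fell at an adjusted p under 0.05, against 33.9% and 33.8% of all genes tested, and 21 did not pass. The median log2 fold change was 0.19 over the channel genes tested and -0.01 over all genes tested.

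The level of a gene bears on these shares. Among genes with an average log2 CPM under 3, 10 of 32 channel genes were DEGs, or 31.2%, close to the 30.9% of all genes at that level. Among genes at or above 3, 5 of 21 were DEGs, 1 higher and 4 lower, or 23.8%, against 8.56% of all genes at that level. This division was chosen after the values were seen. The groups did not overlap for 29 of the 53 channel genes tested (54.7%), against 70.6% of all genes tested.

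**Figure D2:**
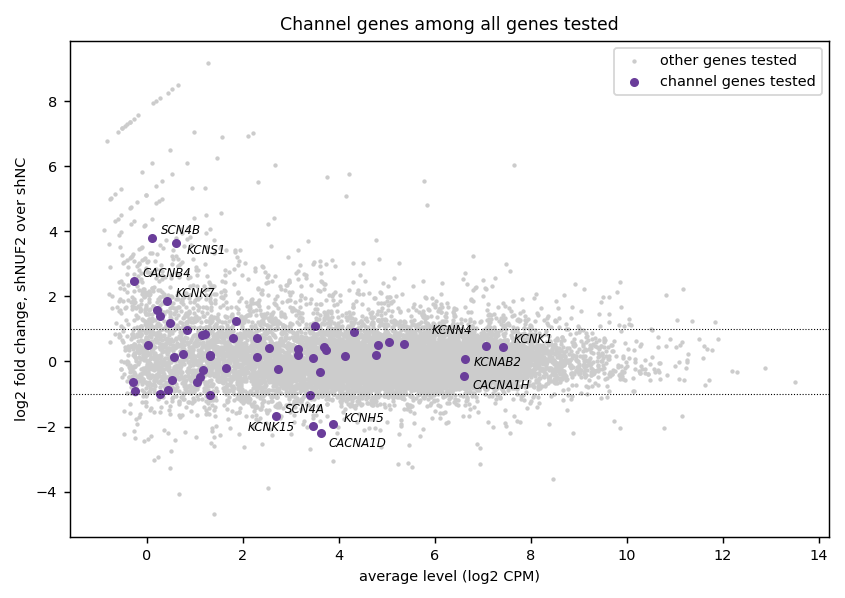
Log2 fold change of shNUF2 over shNC against the average level in log2 CPM for the 12874 genes tested, with the 53 channel genes tested in purple and dotted lines at log2 fold changes of 1 and -1. The largest falls lie at intermediate levels, the highest rises lie at the left edge, and KCNK1 and KCNN4 at the right lie inside the dotted lines.

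The promoters of 4 DEGs are shown to put sequence beside the largest changes: the 2 channel DEGs that fell most and the 2 that rose most among those with a RefSeq promoter. Each spans 250 bases before to 50 bases after the RefSeq start on GRCh38.p14, written 5′ to 3′ on the gene's strand, and capitals mark the GC box GGGCGG or its reverse complement. CACNA1D is at chr3:53494361-53494660 on the plus strand, KCNH5 at chr14:63045409-63045708, SCN4B at chr11:118145384-118145683 and CACNB4 at chr2:152099118-152099417, all 3 on the minus strand. For CACNA1D, KCNH5 and SCN4B the RefSeq start lies inside the counted gene, whose own start is at 53328963, 63102037 and 118152888. These windows need not hold the start of the counted transcripts.
CACNA1D: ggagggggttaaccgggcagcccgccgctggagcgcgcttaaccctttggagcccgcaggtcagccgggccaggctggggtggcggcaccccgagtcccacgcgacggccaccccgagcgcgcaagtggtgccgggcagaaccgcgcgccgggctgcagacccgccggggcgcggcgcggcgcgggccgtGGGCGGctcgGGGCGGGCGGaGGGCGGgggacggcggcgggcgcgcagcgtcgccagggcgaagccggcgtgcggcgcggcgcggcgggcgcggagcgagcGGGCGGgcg
KCNH5: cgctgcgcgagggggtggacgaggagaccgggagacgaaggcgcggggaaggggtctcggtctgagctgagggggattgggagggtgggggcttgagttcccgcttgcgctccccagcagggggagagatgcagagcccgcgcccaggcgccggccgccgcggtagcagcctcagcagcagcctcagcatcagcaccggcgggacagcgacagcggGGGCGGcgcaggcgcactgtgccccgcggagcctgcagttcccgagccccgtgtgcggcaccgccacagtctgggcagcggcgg
SCN4B: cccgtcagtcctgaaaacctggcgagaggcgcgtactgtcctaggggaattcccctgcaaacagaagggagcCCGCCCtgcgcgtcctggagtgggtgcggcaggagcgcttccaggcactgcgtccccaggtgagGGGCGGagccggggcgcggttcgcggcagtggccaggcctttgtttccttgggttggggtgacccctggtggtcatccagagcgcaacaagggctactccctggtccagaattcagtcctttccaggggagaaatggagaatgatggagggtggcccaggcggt
CACNB4: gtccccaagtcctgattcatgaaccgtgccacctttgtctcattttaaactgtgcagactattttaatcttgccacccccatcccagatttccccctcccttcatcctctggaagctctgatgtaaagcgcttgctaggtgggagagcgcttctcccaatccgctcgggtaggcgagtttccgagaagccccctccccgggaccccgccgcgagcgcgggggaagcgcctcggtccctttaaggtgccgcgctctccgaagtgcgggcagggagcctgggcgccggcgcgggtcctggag

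CACNA1D had 83% GC, 56 CpG dinucleotides and 5 GC boxes, some overlapping, and KCNH5 had 74.3% GC, 33 CpG and 1 GC box. SCN4B had 64.7% GC, 18 CpG and 2 GC boxes, and CACNB4 had 62% GC, 23 CpG and no GC box. Over all channel genes, 98 had a RefSeq promoter, with a median of 65.3% GC and 19 CpG, against 58.3% and 14 over all 27305 promoters and 63% and 22 over the 15166 promoters of genes in the count table. The channel promoters thus had more CpG than the former and fewer than the latter. The median was 70.3% GC and 27 CpG for the 35 promoters of genes tested, and 58.3% and 7.5 for the 26 promoters of channel genes with no read in any library. It was 73.3% GC for the 4 promoters of DEGs that fell and 64.7% for the 7 of DEGs that rose. KCNK15, SCN4A and KCNS1 were not in the promoter table.

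A total of 9 short motifs were counted on both strands. GGGCGG was found in 61 of 98 channel promoters (62.2%) and in 44.6% of all promoters, and TATAAA was found in 7 (7.14%) against 12%. CCAAT was found in 33.7% against 35.7%, TTTGAA in 13.3% against 15.4%, TGANTCA in 6.12% against 7.76%, CACGTG in 5.1% against 7.43%, TGATGNAA in 4.08% against 3.67% and TGACGTCA in 1.02% against 1.98%. The left part of the RE1 element that binds the neuronal gene repressor REST, searched as TTCAGCACC, was found in 3 channel promoters (3.06%; CACNG3, KCNH6 and KCNK3) and in 110 of all promoters (0.403%). These matches describe letters within the window. Their background is all 27305 promoters, at a median of 58.3% GC, not the 15166 of genes in the count table, at 63%. REST itself rose slightly (log2 fold change 0.23, adjusted p = 0.00156 by edgeR).

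Among calcium channel pores, CACNA1D fell and CACNA1H fell less. CACNA1D encodes Cav1.3, an L-type pore of endocrine cells, hair cells and the sinoatrial node (GRCh38, chromosome 3, 53328963 to 53813733, plus strand). It had 286, 327 and 314 reads in shNC and 56, 55 and 66 reads in shNUF2. Every shNUF2 library was far below every shNC library. The level fell from 19.6 ± 1.19 CPM to 4.26 ± 0.119 CPM (SD, n = 3), with a log2 fold change of -2.20 (SE 0.14, adjusted p = 1.03e-13 by edgeR), the lowest among channel genes. Exons of CACNA1D and of CHDH on the opposite strand overlap by 1399 bp in GENCODE 29. CHDH, the choline dehydrogenase gene, had 519, 649 and 681 reads against 104, 138 and 150 reads (log2 fold change -2.04, adjusted p = 3.5e-15 by edgeR). Whether the counting used strand is not given in the sources used here, and without strand the reads of the overlap cannot be told apart.

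CACNA1H had 1804, 1657 and 1813 reads in shNC and 1114, 959 and 1338 reads in shNUF2, without overlap between the groups. Its log2 fold change was -0.45 (SE 0.07, adjusted p = 2.2e-06 by edgeR). The other T-type gene tested, CACNA1G (Cav3.1), rose instead (log2 fold change 0.39, SE 0.15, adjusted p = 0.0249), from 123, 103 and 132 reads to 150, 116 and 147 reads, which overlap as raw counts but not as CPM. It no longer passed without shNC replicate 2 (adjusted p = 0.131) or shNUF2 replicate 1 (adjusted p = 0.119). CACNA1A, the P/Q-type pore of nerve terminals, was counted 9, 5 and 11 times in shNC and 25, 27 and 14 times in shNUF2. All shNUF2 counts were higher, and in the test it entered through them it had a log2 fold change of 1.59 (SE 0.44, adjusted p = 0.0023) from a mean of 0.528 CPM, which did not pass by limma on log2(FPKM + 1) (adjusted p = 0.538). CACNA1C (Cav1.2), the L-type pore of heart and smooth muscle, had a log2 fold change of -0.22 (adjusted p = 0.322), with 100, 126 and 103 reads against 57, 90 and 102. Summed over the 10 alpha1 genes, the level was 15.6 ± 1.56 FPKM in shNC and 11.2 ± 0.967 FPKM in shNUF2 (SD, n = 3), a ratio of 0.72, and most of both sums came from CACNA1H.

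The auxiliary calcium channel subunits moved in both directions. CACNA2D1, an alpha2delta subunit that carries channels to the membrane and binds gabapentin, had 183, 208 and 259 reads in shNC and 81, 90 and 109 reads in shNUF2. Its shNUF2 counts were all below its shNC counts, and it fell by 1.02 on the log2 scale (SE 0.14, adjusted p = 3.63e-07 by edgeR). Without shNC replicate 3 or shNUF2 replicate 1 its log2 fold change was -0.95, inside the DEG threshold. CACNA2D2 had 11, 7 and 11 reads in shNC and 7, 33 and 27 in shNUF2, with shNUF2 replicate 1 among the shNC values. Its log2 fold change was 1.39 (SE 0.47, adjusted p = 0.0109), and 0.93 (adjusted p = 0.132) without shNUF2 replicate 2, and the adjusted p was 0.0567 without shNC replicate 2. CACNA2D3 did not pass the test (log2 fold change -0.56, adjusted p = 0.181).

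All 4 beta subunits, cytoplasmic proteins that bind the alpha1 pore, were tested, and 3 passed with higher levels. CACNB3, the highest of them, went from 423, 399 and 433 reads to 514, 498 and 647 reads, and from 3.77 ± 0.365 FPKM to 5.49 ± 0.392 FPKM (SD, n = 3). All shNUF2 values were above all shNC values, at a log2 fold change of 0.59 (SE 0.09, adjusted p = 1.11e-06 by edgeR). CACNB1 rose by 0.44 (SE 0.12, adjusted p = 0.00303). CACNB4 had 7, 3 and 0 reads in shNC and 17, 19 and 15 reads in shNUF2 (log2 fold change 2.49, SE 0.59, adjusted p = 0.000622 by edgeR but 0.482 by limma on log2(FPKM + 1)). CACNB4 entered the test through its shNUF2 libraries alone. The groups stood apart, but the log2 fold change ranged from 1.86 to 3.64 when single libraries were left out.

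CACNB2 had 37, 57 and 53 reads in shNC and 15, 5 and 44 reads in shNUF2. The library of shNUF2 replicate 3 lay within the shNC values, so that the groups overlapped. The log2 fold change was -1.02 (SE 0.38, adjusted p = 0.0199 by edgeR, with entry to the test through shNC). It was -0.59 (adjusted p = 0.145) without shNUF2 replicate 2, -0.85 (adjusted p = 0.0938) without shNUF2 replicate 1 and -0.91 (adjusted p = 0.0779) without shNC replicate 2. The beta subunits summed to 5.6 ± 0.329 FPKM in shNC and 7.7 ± 0.542 FPKM in shNUF2 (SD, n = 3). Of the 8 gamma subunits, related to proteins that also serve AMPA receptors, 2 were tested and neither passed. CACNG6 had 35, 38 and 36 reads against 21, 16 and 25 (log2 fold change -0.63, adjusted p = 0.0679), and CACNG8 had a log2 fold change of 0.19 (adjusted p = 0.284).

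Sodium channels were represented by 1 pore and 1 auxiliary subunit that passed the test, in opposite directions. SCN4A, the skeletal muscle pore Nav1.4 (chromosome 17, 63938554 to 63972918, minus strand), had 141, 157 and 146 reads in shNC and 33, 58 and 30 reads in shNUF2. Every shNUF2 library was below every shNC library, and shNUF2 replicate 2 was the highest of its group. SCN4A fell from 9.41 ± 0.801 CPM to 2.97 ± 1.31 CPM (SD, n = 3), with a log2 fold change of -1.68 (SE 0.22, adjusted p = 1.65e-07 by edgeR). It was the only one of 10 sodium channel pore genes with enough reads to be tested. SCN9A (Nav1.7), a pore of pain-sensing neurons, had 13, 18 and 8 reads against 4, 4 and 6, and SCN8A (Nav1.6) had 1, 3 and 1 against 13, 5 and 6, neither tested.

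SCN4B encodes the beta4 subunit of sodium channels (chromosome 11, 118133377 to 118152888, minus strand). It had 3, 1 and 2 reads in shNC and 23, 27 and 28 reads in shNUF2. Against the limit of 3 reads per library it was at least 9.85-fold higher in shNUF2, where it reached 1.88 ± 0.186 CPM (SD, n = 3). The test, which the gene entered through its shNUF2 libraries, gave an adjusted p of 4.08e-07 by edgeR. SCN3B, another beta subunit, had 15, 8 and 12 reads against 17, 16 and 11 and a log2 fold change of 0.52 (adjusted p = 0.292).

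**Figure D3:**
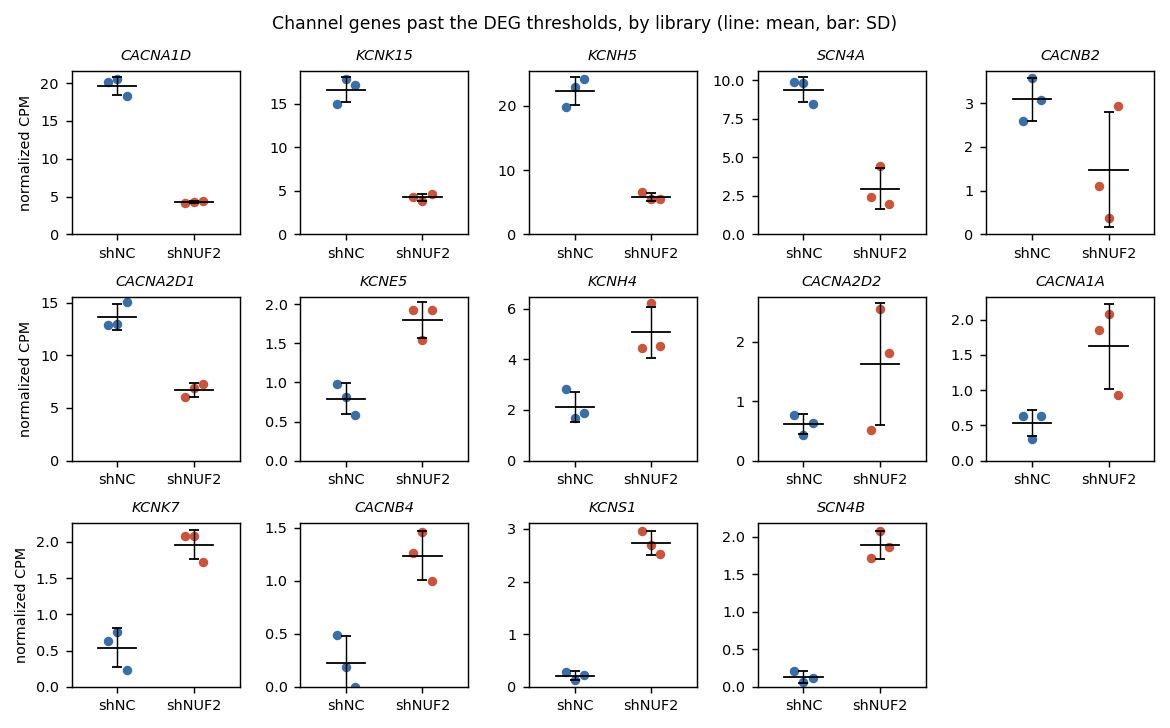
CPM of 14 of the 15 channel DEGs in each library, with 1 point per library, shNC in blue and shNUF2 in red, and the mean with SD of the 3 libraries beside the points, each gene on its own axis from 0. The groups are apart for 12 of these genes and overlap for CACNB2 and CACNA2D2, where 1 shNUF2 library lies among the shNC libraries.

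Voltage-gated potassium channel families differed in how many members could be tested. In the EAG family, KCNH5 (Eag2, Kv10.2), a brain-enriched pore, had 282, 366 and 414 reads in shNC and 88, 71 and 83 reads in shNUF2 (chromosome 14, 62699464 to 63102037, minus strand). The shNUF2 libraries were all far below the shNC libraries. KCNH5 fell from 22.3 ± 2.18 CPM to 5.84 ± 0.6 CPM (SD, n = 3), a log2 fold change of -1.93 (SE 0.13, adjusted p = 5.4e-13 by edgeR). The other EAG genes tested all rose: KCNH4 (Elk1) had 40, 27 and 32 reads against 60, 81 and 68 (log2 fold change 1.26, SE 0.25, adjusted p = 9.24e-05). KCNH2, the cardiac hERG pore, rose by 0.81 (SE 0.29, adjusted p = 0.0149, or 0.051 by DESeq2) and KCNH3 (Elk2) by 0.96 (SE 0.32, adjusted p = 0.0113, or 0.0557 without shNC replicate 1). KCNH1 (Eag1) had 10 reads in shNUF2 replicate 3 and at most 1 read in any other library.

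Of the 5 Kv7 genes, 3 were tested. KCNQ1, the one of highest level and a partner of KCNE1 in heart and epithelia, had 207, 287 and 283 reads in shNC and 268, 194 and 305 reads in shNUF2. The groups overlapped, and the log2 fold change was 0.17 (adjusted p = 0.209). KCNQ3, a neuronal Kv7 pore, had 0, 3 and 0 reads against 5, 7 and 6 and was not tested.

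The Kv1 to Kv4 pores were mostly silent, and 2 of 17 were tested. KCNC4 (Kv3.4), a fast inactivating pore, had 526, 480 and 556 reads in shNC and 721, 565 and 725 reads in shNUF2 and rose by 0.55 on the log2 scale (SE 0.08, adjusted p = 2.17e-06 by edgeR). KCND1 (Kv4.1) had 352, 408 and 444 reads against 402, 415 and 378, and its log2 fold change of 0.19 did not pass the test (adjusted p = 0.076). The silent Kv subunits form no channel alone and alter Kv2 pores when they join them. In this family KCNS1 (Kv9.1; chromosome 20, 45091214 to 45101127, minus strand) had 4, 2 and 4 reads in shNC and 40, 35 and 38 reads in shNUF2. No shNC library came near any shNUF2 library. The test, which KCNS1 entered through its shNUF2 libraries alone, gave a log2 fold change of 3.64 (SE 0.43, adjusted p = 3.55e-08 by edgeR). The size of this value rests on the few reads in shNC, near the limit of 3 reads. KCNV2, another silent subunit, had a log2 fold change of -0.90 (adjusted p = 0.121).

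Of 13 auxiliary Kv genes, 7 were tested and 1 passed. KCNE5, a single-span subunit that inhibits KCNQ1 pores, had 14, 13 and 10 reads in shNC and 26, 20 and 29 reads in shNUF2. The shNUF2 counts were all higher, and the log2 fold change was 1.19 (SE 0.37, adjusted p = 0.00549 by edgeR, with entry to the test through shNUF2). Its value was 1.00 without shNC replicate 3, at the DEG threshold, and its exons overlap those of ACSL4 on the same strand by 78 bp. KCNAB2, the most abundant auxiliary gene, had 1304, 1595 and 1643 reads against 1342, 1324 and 1550 (log2 fold change 0.08, SE 0.05, adjusted p = 0.137). KCNIP3, a calcium-binding partner of Kv4 pores, had a log2 fold change of -0.48 (adjusted p = 0.201).

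**Figure D4:**
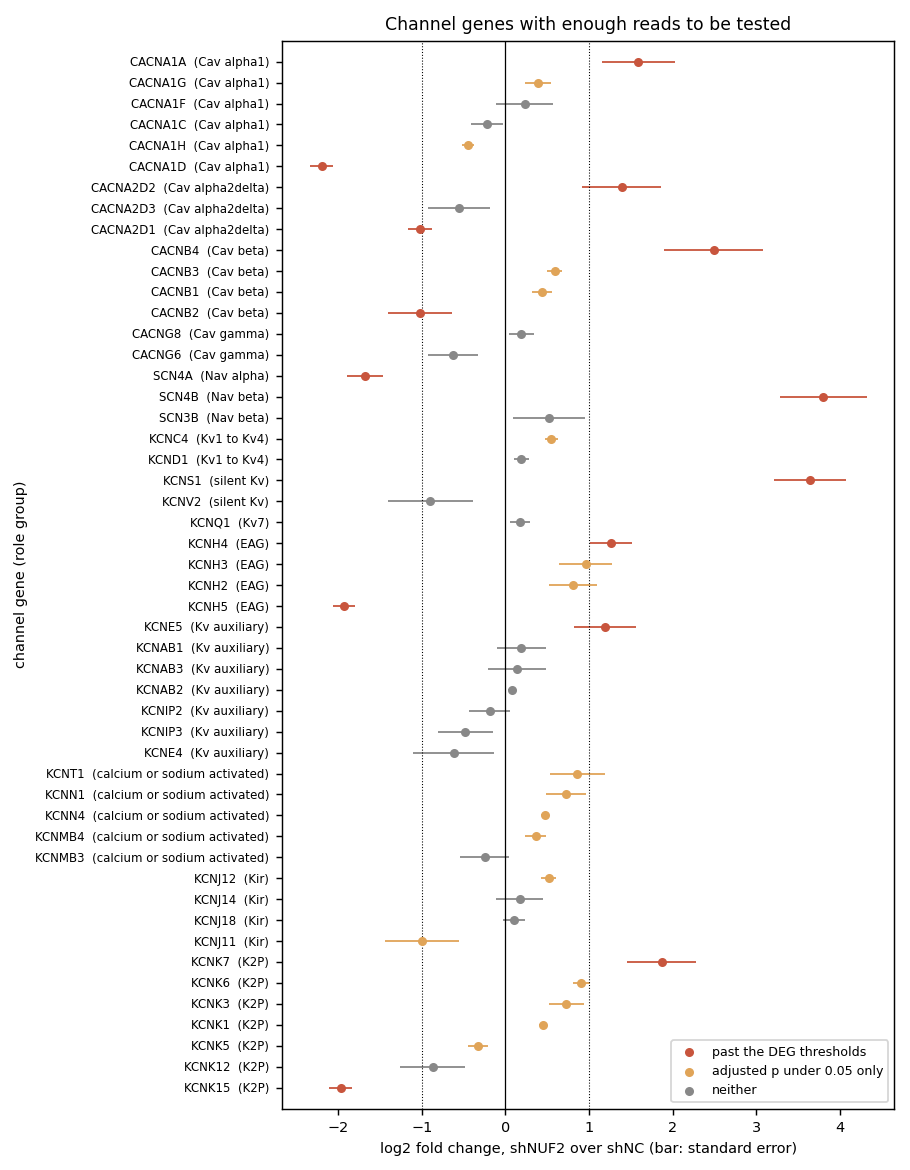
Log2 fold change of shNUF2 over shNC with its SE for 50 of the 53 channel genes tested, 1 point per gene, arranged by role, with DEGs marked and dotted lines at 1 and -1. Genes above and below 0 occur side by side in the calcium channel alpha1, alpha2delta and beta, EAG and K2P groups, while the tested calcium- or sodium-activated genes that passed the adjusted threshold all lie above 0.

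Among the channels without a voltage sensor, the 2 most abundant genes rose by modest folds. KCNK1 had 2179, 2322 and 2378 reads in shNC and 2690, 2582 and 2956 reads in shNUF2, without overlap. Its log2 fold change was 0.45 (SE 0.05, adjusted p = 3.43e-09 by edgeR). KCNN4 had 1689, 1749 and 1887 reads against 2101, 2052 and 2328, again without overlap, and a log2 fold change of 0.47 (SE 0.05, adjusted p = 1.8e-09). The 12 calcium- or sodium-activated genes are a separate group, and 2 of them carry a voltage-gated channel term in the deposited annotation. Of the 12, 5 were tested and 4 rose, KCNN4 among them. The others were KCNN1 (SK1, log2 fold change 0.72, adjusted p = 0.0112), KCNMB4, a BK auxiliary subunit (0.36, adjusted p = 0.00971), and KCNT1 (Slack, 0.86, adjusted p = 0.0244, with overlapping groups). The adjusted p was 0.0544 for KCNN1 and 0.0599 for KCNMB4 without shNC replicate 3, and for KCNT1 it lay between 0.0717 and 0.136 without shNC replicate 1, shNC replicate 2, shNUF2 replicate 1 or shNUF2 replicate 3. KCNMB3 had a log2 fold change of -0.25 (adjusted p = 0.457).

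The strongest fall among leak channels was that of KCNK15 (TASK5), which is not known to form a current alone (chromosome 20, 44745865 to 44752313, plus strand). It had 213, 284 and 295 reads in shNC and 58, 50 and 69 reads in shNUF2. The groups stood far apart, at 6.7 ± 0.621 FPKM and 1.67 ± 0.14 FPKM (SD, n = 3), and the log2 fold change was -1.97 (SE 0.14, adjusted p = 3.98e-12 by edgeR). RIMS4, whose exons overlap those of KCNK15 by 506 bp on the opposite strand, moved the other way, with 149, 175 and 190 reads against 262, 254 and 286 (log2 fold change 0.83, adjusted p = 2.02e-07). KCNK7 had 9, 12 and 4 reads in shNC and 28, 27 and 26 in shNUF2 (log2 fold change 1.87, SE 0.41, adjusted p = 0.000239, with entry to the test through shNUF2). KCNK6 (TWIK2) rose by 0.91 (SE 0.10, adjusted p = 1.16e-08) and KCNK3 (TASK1), an acid-sensitive pore, by 0.73 (adjusted p = 0.00316). KCNK5 (TASK2) fell by 0.33 (adjusted p = 0.0222), which became 0.0714, 0.0565 and 0.0834 without shNC replicate 1, shNUF2 replicate 2 and shNUF2 replicate 3, and KCNK12 had a log2 fold change of -0.87 (adjusted p = 0.0536).

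Inward rectifiers let potassium in more readily than out and stabilise the resting potential. Of 16 genes, 4 were tested. KCNJ12 (Kir2.2) had 333, 366 and 400 reads in shNC and 418, 490 and 470 reads in shNUF2 (log2 fold change 0.52, SE 0.09, adjusted p = 1.32e-05 by edgeR). KCNJ18 (Kir2.6) is a near-identical copy, so that reads may be divided between the genes in a way the counts do not show, and it had a log2 fold change of 0.10 (adjusted p = 0.508). With their reads summed, the log2 fold change was 0.40 (SE 0.08, adjusted p = 4.4e-05). KCNJ11 (Kir6.2), the pore of the ATP-sensitive channel, had 17, 17 and 33 reads against 17, 6 and 6, with overlapping groups and entry to the test through shNC, and was at 1.39 against 0.707 CPM (adjusted p = 0.0494). That call was lost without shNC replicate 1 (0.0508), shNC replicate 3 (0.248), shNUF2 replicate 2 (0.174) or shNUF2 replicate 3 (0.217). KCNJ14 had a log2 fold change of 0.17 (adjusted p = 0.593).

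Summed by role, the groups moved unequally. The K2P sum was 55.4 FPKM in shNC and 66.3 FPKM in shNUF2, the calcium- or sodium-activated sum was 37 FPKM and 49.9 FPKM, and the sodium channel alpha sum was 1.24 FPKM and 0.437 FPKM. The silent Kv sum went from 0.67 FPKM to 1.32 FPKM and the sodium channel beta sum from 0.711 FPKM to 1.24 FPKM, both at low levels. The EAG sum depended on the unit, with 2.93 against 2.8 FPKM but 27.1 against 16.2 CPM. Over all channel genes the sum was 153 ± 4.1 FPKM in shNC and 179 ± 1.97 FPKM in shNUF2 (SD, n = 3), a ratio of 1.17. Without KCNK1, KCNN4 and CACNA1H it was 64.5 against 68.6 FPKM, a ratio of 1.06. With 3 libraries against 3, an exact permutation test of such a sum cannot go below p = 0.1, and none is given.

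**Figure D5:**
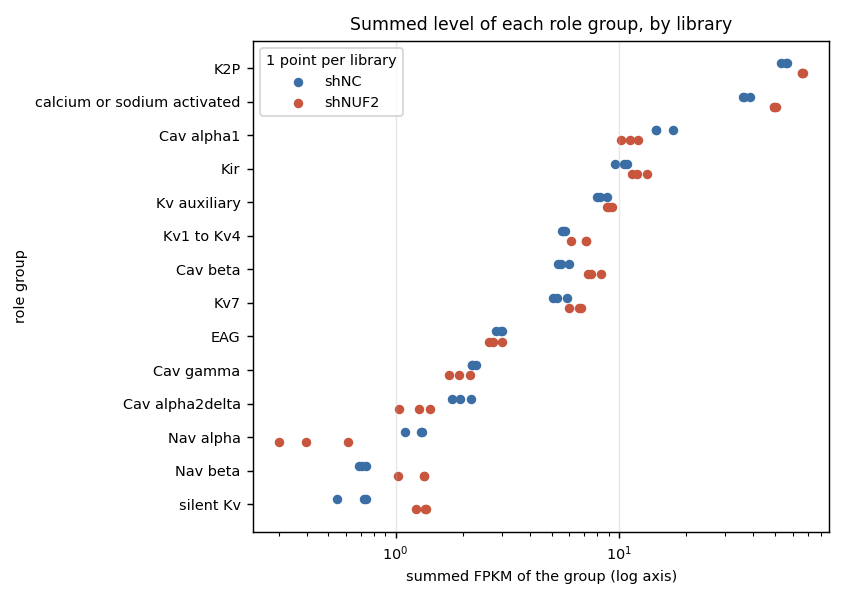
Summed FPKM of the genes in each of 14 role groups, on a log axis, with 1 point for each shNC (blue) and shNUF2 (red) library. The K2P and calcium- or sodium-activated groups are the highest and have their shNUF2 points to the right, whereas the calcium channel alpha1, alpha2delta and sodium channel alpha groups have theirs to the left.

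The 83 genes that were not tested are accounted for by their reads. Of these, 32 had none, and the other 51 had a highest count of at most 25, with a median of 4. Their reads came to 256 in shNC and 543 in shNUF2. The summed CPM was higher in shNUF2 for 43 genes and lower for 8, or 84.3% higher, against 75% of the 3987 genes with reads in the whole table that were not tested. KCNG1, a silent Kv subunit, had no read in any shNC library and 8, 7 and 9 reads in shNUF2, at least 3.02-fold higher against the limit of 3 reads. KCNN3 (SK3) had no read in shNC and 5, 2 and 9 in shNUF2, and KCNT2 none against 1, 1 and 5. KCNJ6, a G-protein-gated rectifier, had 0, 2 and 0 reads against 8, 8 and 8, and KCNE1 had 1, 3 and 3 against 6, 13 and 15. These untested genes are named after their values were seen, and all are among the 43 that were higher. SCN9A, given above, is among the 8 that were lower.

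Genes that act with the channels were taken from 4 lists. Of 28 channel partners, 17 were tested, and 3 were DEGs, all higher, while 12 rose and 1 fell at an adjusted p under 0.05, with a median log2 fold change of 0.43. DEGs were 17.6% of those tested, against 13.6% of all genes tested, and 76.5% passed the adjusted threshold, against 67.6%. RRAD and GEM are small GTP-binding proteins that bind calcium channel beta subunits and inhibit the current. RRAD had 3, 4 and 6 reads in shNC and 67, 63 and 51 reads in shNUF2 (log2 fold change 3.96, SE 0.38, adjusted p = 5.99e-10 by edgeR). GEM had 39, 45 and 42 reads against 231, 185 and 223 (log2 fold change 2.53, SE 0.16, adjusted p = 2.44e-13). In both genes every shNUF2 library was several times above every shNC library. STAC2, an adaptor of L-type channels, had 4, 2 and 4 reads against 14, 12 and 30 (log2 fold change 2.62, adjusted p = 0.000124). RRAD and STAC2 entered the test through their shNUF2 libraries alone, so that of the 3 DEGs GEM was the one with enough reads in both groups.

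Of 46 genes of calcium handling, 36 were tested, with 3 higher and 2 lower DEGs, 16 that rose and 11 that fell at an adjusted p under 0.05, and a median of 0.07. The shares, 13.9% DEGs and 75% at the adjusted threshold, lay near the 13.6% and 67.6% of all genes tested. CAMKK1, a calmodulin-dependent kinase kinase, fell from 906, 969 and 1046 reads to 316, 288 and 334 reads (log2 fold change -1.45, SE 0.07, adjusted p = 9.88e-16 by edgeR). RYR3, a calcium release channel, fell from 34, 62 and 56 to 15, 17 and 11 reads (log2 fold change -1.61, adjusted p = 8.1e-05). The calcium-responsive transcription factor genes NFATC2 and NFATC1 rose by 1.29 (adjusted p = 3.82e-07) and 1.15 (adjusted p = 1.77e-05), the latter by 0.98 without shNUF2 replicate 2. ATP2B4, a plasma membrane calcium pump, rose by 1.13.

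Among 43 other cation channels, 18 were tested, with 2 higher and 1 lower DEGs and a median of 0.13, so that 16.7% were DEGs against 13.6% of all genes tested. PIEZO2, a mechanosensitive channel, had 860, 1070 and 1094 reads in shNC and 343, 311 and 389 in shNUF2 (log2 fold change -1.34, SE 0.07, adjusted p = 4.9e-15 by edgeR). TRPV3, a warmth-sensitive channel of epithelia, had 26, 29 and 35 reads against 138, 142 and 155 (log2 fold change 2.46, SE 0.19, adjusted p = 1.14e-11). In neither gene did the groups overlap. TRPV2, which entered the test through shNUF2 alone, had 4, 7 and 5 reads against 11, 20 and 12 (log2 fold change 1.60, adjusted p = 0.00686, or 0.066 without shNUF2 replicate 2).

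Of 22 ion pumps and cotransporters, 13 were tested, with 2 higher and 1 lower DEGs and a median of 0.51, so that 23.1% were DEGs against 13.6% of all genes tested. SLC12A3, the thiazide-sensitive sodium chloride cotransporter of the kidney, had 1055, 1206 and 1330 reads in shNC and 105, 124 and 133 in shNUF2. Its fall was larger than that of any channel gene tested (log2 fold change -3.12, SE 0.08, adjusted p = 2.84e-21 by edgeR), and its groups were far apart. ATP1B2, which reached the filter in all 3 libraries of shNUF2 but in 1 of shNC, had a log2 fold change of 1.38 (adjusted p = 0.0236), with values from 0.92 to 2.28 on leaving out single libraries, and no longer passed (adjusted p of 0.0763 to 0.197) without shNC replicate 1, shNC replicate 3 or shNUF2 replicate 2. ATP1B1, a beta subunit of the sodium pump, rose by 0.63 (adjusted p = 7.35e-10).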

How the data were processed

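RNA-seq libraries of OVCAR3 cells with shNC or shNUF2 (3 each) were prepared with a stranded mRNA kit. The authors deposited read counts per gene, not normalized, and FPKM values, which equal the count divided by gene length and library total to within a relative deviation of 2.71e-07. The submitters' processing notes name cutadapt, HISAT, HTSeq and GRCh38.p13. Versions and the strand setting of the counting are not given in the sources used here.

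Counts of all 19973 genes were filtered with filterByExpr, normalized by TMM and tested in 1 fit without covariates by edgeR 4.0.16 (quasi-likelihood, R 4.3.3), with Benjamini-Hochberg adjustment over 12874 genes. The SE of a log2 fold change was derived from its F statistic (estimate over root F). Named were NUF2, all channel DEGs, the 10 channel genes of highest FPKM, up to 3 tested genes of smallest adjusted p per role, and companion genes past the DEG thresholds, with a few others named for their values or for background. The values of some of these genes are not reported here. The members, gene lists and tests were chosen with earlier results of these data known, and the lists are no independent evidence of direction. Alternatives were other size factors, DESeq2 1.42.0, limma 3.58.1 on log2(FPKM + 1) and log2(FPKM + 0.1), other filters, a replicate block, leaving out each library, and, chosen after seeing the data, KCNJ12 and KCNJ18 summed. Promoters are RefSeq entries of GRCh38.p14, and exon overlaps come from GENCODE 29.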

Additional observations from a re-analysis of the deposited data

How the results depend on the processing

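The log2 fold change of NUF2 was -1.60 to -1.42 over all alternatives. The number of channel DEGs higher in shNUF2 was 9 by edgeR. It was 19 by DESeq2 and 21 without the filter on low counts, with 104 genes tested in each, 2 with at least 1 CPM in every library (37 tested), 5 by limma on log2(FPKM + 0.1) and 0 by limma on log2(FPKM + 1), where 19 channel genes had a higher level at an unadjusted p under 0.05. The pseudocount of 1 lies above the shNC FPKM of all 9 genes and shrinks their fold changes by construction. Leaving out single libraries gave 9 to 14, with 14 without shNC replicate 1 and 14 without shNC replicate 2. The number of lower DEGs was 6, with 1 (KCNK15) by limma on log2(FPKM + 1) and 5 to 8 on leaving out single libraries. The other alternatives gave counts within 1.5 times the reported ones. Calls at an adjusted p under 0.05 ranged from 16 to 33 for higher and from 6 to 10 for lower levels, with 22 to 27 and 6 to 9 on leaving out single libraries. By DESeq2, CACNA1G, CACNB2, KCNH2, KCNJ11, KCNK5 and KCNT1 missed the adjusted threshold.

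Of the 15 DEGs, 14 lost the call under at least 1 alternative, all of them by limma on log2(FPKM + 1), and KCNK15 passed under every alternative. Of 24 other named genes, 3 (KCNH3, KCNJ11 and KCNV2) passed the DEG thresholds under at least 1. No called value of a named gene changed sign. With the replicate number as a block, 9 channel DEGs were higher and 7 lower, 23 and 8 passed the adjusted threshold, and NUF2 was at -1.51. Deviations of same-numbered libraries from their group means were correlated at 0.02, 0.00 and -0.03. Whether same-numbered libraries shared a batch is not given in the labels, and these correlations cannot exclude it. Of the 83 channel genes that did not pass the filter on low counts, 32 had no read and 51 were tested by edgeR without that filter, at a highest count of 25 reads or fewer.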
